A study of Mus musculus with 2 samples.

Results

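Mitochondrial fatty acid beta-oxidation was described through the genes of its carnitine entry step and of its core enzymes. The members were every probe set, a group of short probes summarised into 1 value, whose single annotated gene symbol was Cpt1a, Cpt1b, Cpt2, Acadl, Acadm, Acads, Acadvl, Hadha, Hadhb or Hadh. This gave 17 probe sets of the 34945 with 1 symbol, and 9 of the 10 genes among the 18193 genes named on the array. The probe set that carries Cpt1b is annotated to 3 genes, so Cpt1b, a carnitine palmitoyltransferase of the entry step, has no value here. The samples were epididymal white adipose tissue, a visceral fat depot, of male C57BL/6 mice. A sample on a high-fat diet given over 7 weeks was set against a sample on normal chow, with the diets begun at 9 weeks of age. The sample records used here give no number of weeks on chow and no number of animals. The labels name no transgene, drug or pooling of animals, and there is 1 array per diet. The diets therefore could not be compared by any test, and "higher" and "lower" are words for these 2 arrays alone.

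Beta-oxidation shortens fatty acids in the mitochondrion by repeated rounds of dehydrogenation, hydration, a second dehydrogenation and thiolysis, and each round releases acetyl-CoA. Long-chain fatty acids enter the matrix as acylcarnitines, which Cpt1 enzymes make at the outer membrane and Cpt2 turns back into acyl-CoA inside. In white fat the pathway competes with storage of fatty acids as triglyceride, and its genes are known targets of the fatty acid sensing PPAR receptors.

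The deposited values are linear intensities. Trimmed by 2% at both ends, they averaged 99.6 on the high-fat diet array and 99.6 on the chow array. Weak signal was bounded by a floor, each array's 40th percentile, at an intensity of 27.9 on the high-fat diet and 28.6 on chow. A gene was measured where a probe set reached the floor on at least 1 array, which held for 14066 genes, and its brightest measured probe set stood for it. As a yardstick of probe error, the diet difference of probe sets of the same gene had a pooled SD of 0.32 log2 units over 5196 genes, and of 0.20 for genes with a mean intensity of 400 or more. This SD covers neither the spread between animals nor an error common to a gene's probe sets. In bulk tissue, fewer cells of a type and less RNA per cell cannot be told apart.

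The DNA next to the gene starts is shown for members whose differences are compared below: the pair Hadha and Hadhb, which share a single stretch between their starts, and Acadl, Acadm and Acadvl, acyl-CoA dehydrogenases with different diet differences. Sequences are from RefSeq on build GRCm38.p6. The stretch between Hadha and Hadhb lies on chromosome 5 at chr5:30154981-30155252 and is 272 bases long on the plus strand, with Hadha read to the left of it and Hadhb to the right. The others are the 250 bases before the start, read on the minus strand, at chr1:66863310-66863559 for Acadl, chr3:153944644-153944893 for Acadm and chr11:70015429-70015678 for Acadvl. Capitals mark GGGCGG, a GC box, and AGGTCA, the half-site to which nuclear receptors such as the PPARs bind, on either strand.
Hadha-Hadhb: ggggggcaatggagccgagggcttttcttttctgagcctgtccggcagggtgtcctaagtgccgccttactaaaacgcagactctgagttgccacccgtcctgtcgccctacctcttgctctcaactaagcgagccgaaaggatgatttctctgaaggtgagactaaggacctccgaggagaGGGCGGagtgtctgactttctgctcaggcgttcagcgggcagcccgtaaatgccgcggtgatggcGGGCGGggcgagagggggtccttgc
Acadl: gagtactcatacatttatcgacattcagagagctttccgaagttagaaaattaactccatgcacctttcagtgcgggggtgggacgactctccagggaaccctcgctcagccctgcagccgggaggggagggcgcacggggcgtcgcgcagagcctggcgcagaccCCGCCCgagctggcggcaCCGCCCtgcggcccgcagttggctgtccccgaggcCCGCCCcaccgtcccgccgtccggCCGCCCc
Acadm: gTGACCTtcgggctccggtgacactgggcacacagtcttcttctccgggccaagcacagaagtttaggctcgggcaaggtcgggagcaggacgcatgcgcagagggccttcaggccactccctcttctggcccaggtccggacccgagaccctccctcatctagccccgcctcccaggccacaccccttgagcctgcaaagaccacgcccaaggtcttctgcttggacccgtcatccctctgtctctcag
Acadvl: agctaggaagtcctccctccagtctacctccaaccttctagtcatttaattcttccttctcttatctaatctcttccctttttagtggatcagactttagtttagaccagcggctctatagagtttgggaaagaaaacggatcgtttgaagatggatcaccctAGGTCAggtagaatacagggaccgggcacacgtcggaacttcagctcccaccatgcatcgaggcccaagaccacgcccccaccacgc
The stretch shared by Hadha and Hadhb holds 2 GC boxes and no AGGTCA, and that of Acadl holds 4 GC boxes and no AGGTCA. Those of Acadm and Acadvl each hold 1 AGGTCA and no GC box.

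Of the 9 members with a promoter window of 250 bases before to 50 after the start, 7 held GGGCGG, as did 35.7% of all 32851 windows, the exceptions being Acadm and Acadvl, and the windows of Hadha and Hadhb overlap. AGGTCA was found in 3 of the 9, those of Acadm, Acadvl and Cpt1a, and in 16.3% of all windows. CCAAT was found in 2, those of Cpt1a and Hadh, and in 37.4% of all windows. A direct repeat of AGGTCA with 1 base between the copies, the form bound by PPAR with its partner RXR, was in 0 of the 9 and in 0.0396% of all windows. The site TCAAGGTCA of the oestrogen-related receptors, which contains AGGTCA, was in 0 of the 9 and in 0.423% of all. These matches describe letters in short windows, on both strands, and say nothing of binding.

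High-fat diet intensities were above those on chow for 7 of the 9 measured member genes, beside 46.8% of all measured genes, and below them for 2, beside 52.9%. The median difference of the members was 0.26 log2 units, high-fat diet minus chow, against -0.02 over all measured genes. All members were bright, and of the 2007 measured genes with a mean intensity of 400 or more 55.9% were higher, with a median of 0.03. An intensity at least 25% higher on the high-fat diet was seen in 3 members, Acadl, Cpt2 and Cpt1a, beside 15.8% of all measured genes and 14.6% of the bright ones. At 1.5-fold or more there was 1, Acadl, beside 5.82%, and at 2-fold or more 0, beside 1.17%. No member was at least 20% lower, the same ratio downwards, beside 18.5% of all measured genes and 8.32% of the bright ones. The direction of Hadha and Acads depended on the scale: centring on 11 measured reference genes put Hadha at -0.03, so that 6 of 9 members and 36.8% of all genes were higher, and centring on the median of all probe sets put Acads at 0.0023, so that 8 of 9 members and 49.9% of all genes were higher.

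**Figure D1:**
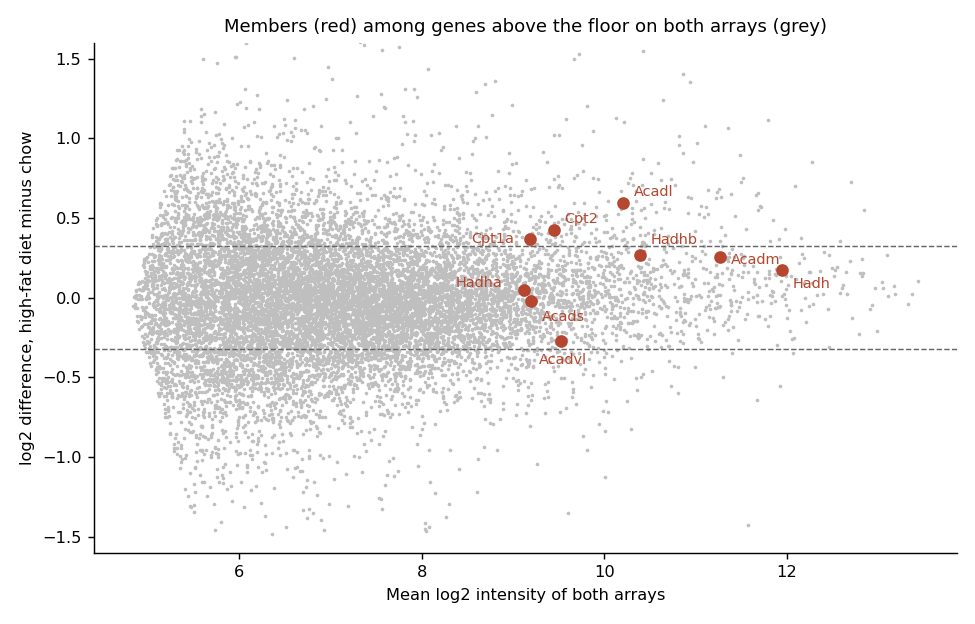
Difference in log2 intensity, high-fat diet minus chow, against the mean log2 intensity of both arrays, for 12478 genes above the floor on both arrays (grey, 26 of them outside the drawn range of 1.6 in either direction) and the 9 members (red); dashed lines mark 25% higher and 20% lower. Acadl, Cpt2 and Cpt1a lie above the upper line and no member lies under the lower one, while Hadha and Acads lie near 0 and change side with the scale.

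Both measured members of carnitine-dependent entry, Cpt1a and Cpt2, had higher intensities on the high-fat diet. Cpt1a, the outer-membrane enzyme that commits long-chain fatty acids to oxidation and is inhibited by malonyl-CoA, had an intensity of 659.6 on the high-fat diet and 511.6 on chow in its brightest probe set. This is 1.29-fold higher, a log2 difference of 0.37, and 13.5% of all measured genes were at least as far up. Its probe set 1434866_x_at had 98.5 on the high-fat diet and 42.3 on chow, 2.33-fold higher. The remaining probe set of Cpt1a, 1438156_x_at, had 47.8 on the high-fat diet and 23.7, below the floor, on chow, so that it was at least 1.67-fold higher. All Cpt1a probe sets were thus higher on the high-fat diet, with the weaker ones further apart than the brightest.

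Cpt2, the inner-membrane enzyme that releases acyl-CoA into the matrix, had 808.1 on the high-fat diet and 602.3 on chow in its brightest probe set. The difference was 0.42, or 1.34-fold, a difference reached or passed by 10.8% of all measured genes. Its other probe set, 1447820_x_at, had 88.2 on the high-fat diet and 81.9 on chow, a difference of 0.11 and within the probe error. The size of the Cpt2 difference therefore depended on the probe set, and its direction rests on the brightest one.

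**Figure D2:**
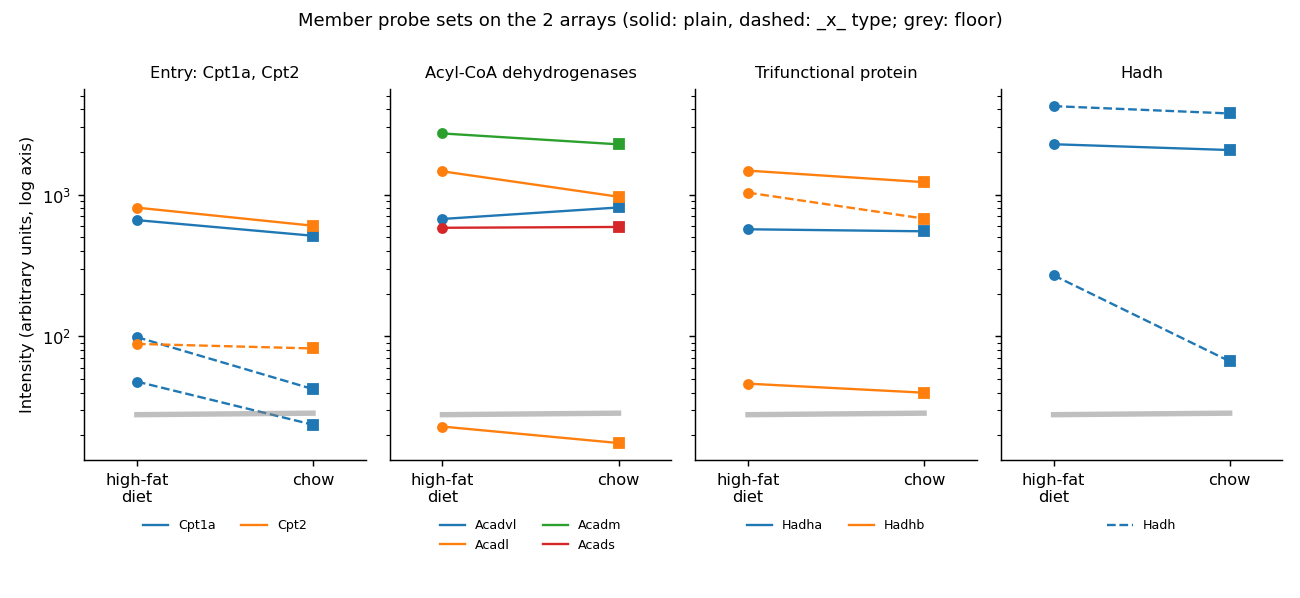
Intensity of the 17 member probe sets on the high-fat diet array (left, circles) and the chow array (right, squares), on a log axis, by step of the pathway; lines join the same probe set, solid for plain and dashed for _x_ probe sets, and grey bars mark the floor. The steepest lines are weak _x_ probe sets of Cpt1a and Hadh, the bright probe set of Acadl has 1458 on the high-fat diet and 964.6 on chow, and Acadvl slopes the other way.

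The acyl-CoA dehydrogenases, which carry out the first dehydrogenation for different chain lengths, did not share a direction. Acadvl, the membrane-bound enzyme for very long chains, had 672.1 on the high-fat diet and 810.2 on chow. It was 1.21-fold lower, a difference of -0.27, in its only probe set, and between -0.35 and -0.25 under the 4 other scalings, the settings that can move it beside the pseudocount. Among bright genes 11.5% were at least as far down, and 22.6% among all measured genes.

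Acadl, the enzyme for long chains, had 1458 on the high-fat diet and 964.6 on chow and was the most different member gene by its brightest probe set. It was 1.51-fold higher, a difference of 0.60, which 5.61% of all measured genes and 4.98% of the bright ones reached or passed. Its difference was 0.50 to 0.62 under the 4 other scalings. A second probe set of Acadl, 1448988_at, lay below the floor at 23 on the high-fat diet and 17.6 on chow and gives no difference. Without Acadl, 6 of 8 member genes were higher, and their median was 0.21.

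Acadm, the enzyme for medium chains, had 2698.6 on the high-fat diet and 2260.9 on chow in its only probe set, 1.19-fold higher, a difference of 0.26. It was 0.14 under quantile normalization, within the probe error of bright genes. Acads, the enzyme for short chains, had 582.4 on the high-fat diet and 590.2 on chow, a difference of -0.02. Along the chain-length order the differences were thus -0.27 for Acadvl, 0.60 for Acadl, 0.26 for Acadm and -0.02 for Acads.

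The mitochondrial trifunctional protein joins the later steps for long chains, with Hadha giving the hydratase and hydroxyacyl-CoA dehydrogenase subunit and Hadhb the thiolase subunit. Hadha had 568.4 on the high-fat diet and 549.9 on chow in its only probe set, a difference of 0.05 that turned to -0.03 with reference gene centring. Hadhb had 1474.8 on the high-fat diet and 1222.7 on chow in its brightest probe set, 1.21-fold higher, a difference of 0.27. Its probe set 1437172_x_at had 1031.1 on the high-fat diet and 676.1 on chow, a difference of 0.61, and its probe set 1442732_at had 46.2 on the high-fat diet and 39.9 on chow, a difference of 0.21. All Hadhb probe sets were higher on the high-fat diet, by more than Hadha, and the genes start at either end of the 272 bases printed above. Whether the subunits truly differ from each other was not tested, since each diet had 1 array.

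Hadh, the matrix hydroxyacyl-CoA dehydrogenase for medium and short chains, differed little in its bright probe sets and strongly in a weak one. Its probe set 1455972_x_at had 4208.3 on the high-fat diet and 3735.2 on chow, a difference of 0.17. The probe set 1460184_at had 2265.2 on the high-fat diet and 2061.1 on chow, a difference of 0.14. In contrast 1436756_x_at had 268.9 on the high-fat diet and 66.5 on chow, 4.04-fold higher, a difference of 2.02. The direction was shared by all its probe sets, but the size ran from within the probe error to 4.04-fold, and the mean over the probe sets of Hadh was 0.77.

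Both member probe sets that were 2-fold or more higher, 1434866_x_at of Cpt1a and 1436756_x_at of Hadh, were of the _x_ type, whose probes can match other sequences too. Among all probe sets of this type with 1 symbol that passed the floor on each array, 1.15% of 1299 were 2-fold or more higher, against 1.01% of 15281 plain ones. Of the 15 member probe sets that passed the floor on each array 13 were higher, with a median of 0.26. The 5 of _x_ type were all higher with a median of 0.61, where 51% of all _x_ probe sets were, and 8 of the 10 plain ones were higher with a median of 0.23, where 46.8% of all plain ones were. Probe sets of the same gene are not independent measurements of the diet. Cross-hybridisation in the _x_ probe sets was not tested.

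**Figure D3:**
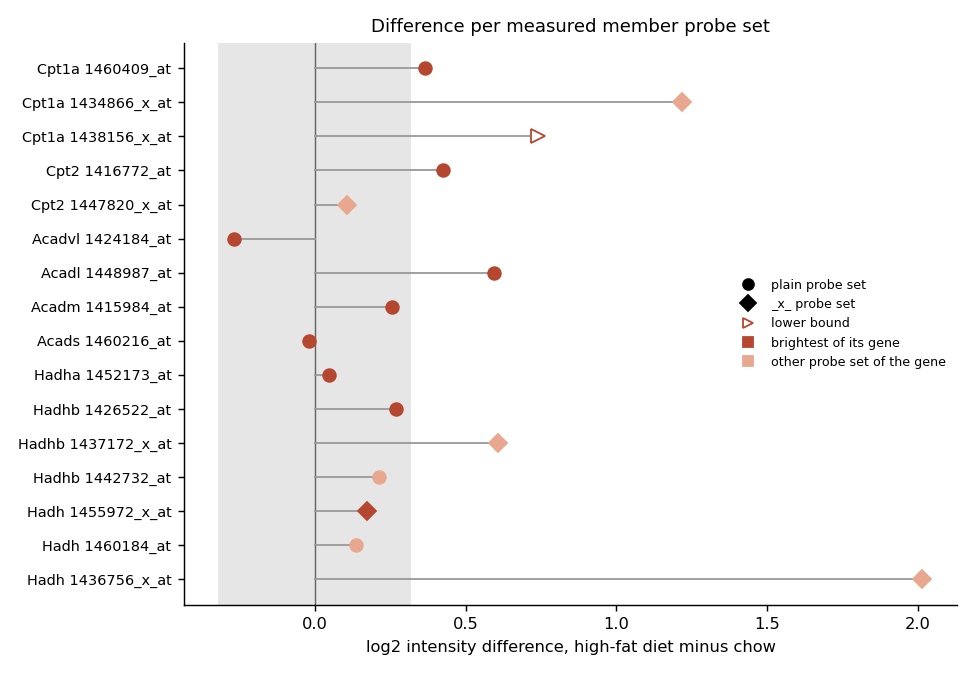
Difference in log2 intensity, high-fat diet minus chow, of the 16 measured member probe sets; circles are plain and diamonds _x_ probe sets, dark red is the brightest of its gene, the open triangle is a lower bound and the grey band is the pooled probe error of 0.32 in either direction. Outside the band lie probe sets of Cpt1a, Cpt2, Acadl, Hadhb and Hadh, all on the higher side; by the SD of 0.20 for bright genes Acadvl at -0.27 would lie outside on the lower side too. Acads and Hadha, drawn near 0, change side with the scale.

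The other genes of entry, from a list of 6, all measured, gave 4 higher, beside 46.8% of all measured genes, and 2 lower. Their median was 0.13, which was 0.05 with reference gene centring. Slc25a20, the carrier that exchanges acylcarnitine for carnitine across the inner membrane, had 371.8 on the high-fat diet and 267.3 on chow, 1.39-fold higher, and 0.24 log2 units higher in its other probe set. Cpt1a, Slc25a20 and Cpt2, which act in sequence, were thus each between 1.29-fold and 1.39-fold higher in their brightest probe sets. Acacb, the acetyl-CoA carboxylase that makes malonyl-CoA at the mitochondrion, had 257.3 on the high-fat diet and 360.8 on chow, 1.40-fold lower. The other probe set of Acacb gave no difference of the same direction above the floor on both arrays. Mlycd, which degrades malonyl-CoA, had 230.1 on the high-fat diet and 191.4 on chow, 1.20-fold higher. Slc22a5, the plasma membrane carnitine transporter, differed by 0.18, Cpt1c by 0.08 at 42.8 on the high-fat diet and 40.4 on chow, and Crat, the carnitine acetyltransferase, by -0.19. Among the 4 measured long-chain acyl-CoA synthetases, which activate fatty acids before entry, 1 was higher, beside 46.8% of all measured genes. The count was 2 under the scalings that put Acsl4 just above 0. Acsl1, also listed, had no probe set of its own and so has no value here. Acsl6 had 51.9 on the high-fat diet and 5.1, below the floor, on chow, and was at least 1.81-fold higher, while Acsl3 differed by -0.27 and Acsl5 by -0.11. The 3 probe sets of Acsl3 did not all lie above the floor on both arrays with 1 direction.

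Other enzymes of the spiral were read through 7 genes, all measured, of which 4 were higher, beside 46.8% of all measured genes, and 3 lower. Their median of 0.04 turned negative under quantile normalization, lowess centring and reference gene centring (-0.04, -0.02 and -0.04). Decr1, a reductase for unsaturated fatty acids, was 1.19-fold higher, from probe sets of 1 direction. Acaa2, the matrix thiolase, differed by 0.20 in its brightest probe set and by -0.09 in its plain one. Eci2, an enoyl-CoA isomerase, differed by 0.10 and Eci1, its relative, by 0.04, with Eci1 negative in 3 of the 4 other scalings. Echs1, the short-chain hydratase, differed by -0.15 and Hsd17b10, a hydroxyacyl-CoA dehydrogenase, by -0.18. Acot2, a matrix acyl-CoA thioesterase, had 118 on the high-fat diet and 164.1 on chow, 1.39-fold lower, but 0.01 in its other probe set.

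The electron acceptors of the acyl-CoA dehydrogenases were all higher, 3 of 3, beside 46.8% of all measured genes and 55.9% of the bright ones. Their median was 0.13, which was 0.05 with reference gene centring. Etfa, a subunit of the electron transfer flavoprotein, had 2074.9 on the high-fat diet and 1656.5 on chow, a difference of 0.32. Its partner Etfb had 1653.6 on the high-fat diet and 1513.6 on chow, a difference of 0.13 that was 0.02 under quantile normalization. Etfdh, which passes the electrons to ubiquinone, had 404.7 on the high-fat diet and 373.2 on chow. This was a difference of 0.12 that was 0.04 with reference gene centring. The other probe set of Etfdh gave no difference of the same direction above the floor on both arrays. In the rest of the acyl-CoA dehydrogenase family, 3 of 8 genes were higher, beside 46.8% of all measured genes, with a family median of -0.12. The count was 2 to 4 under the other scalings. Acad11 had 854.8 on the high-fat diet and 527 on chow, 1.62-fold higher, and 0.74 log2 units higher in its other probe set. Acadsb and Ivd, which act in the breakdown of branched-chain amino acids, were 1.33-fold and 1.27-fold lower, and Acad12 was 1.29-fold lower.

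Beta-oxidation in peroxisomes, which shortens very long chains, was measured through 11 of 13 listed genes. Of these 7 were higher, beside 46.8% of all measured genes, and 4 lower. Their median was 0.14, which was 0.06 with reference gene centring. Acaa1b, a peroxisomal thiolase, had 511.2 on the high-fat diet and 273.4 on chow, 1.87-fold higher, and Acox2, an acyl-CoA oxidase for bile acid precursors and branched chains, 78.1 on the high-fat diet and 51.2 on chow, 1.53-fold higher. Ehhadh, the peroxisomal bifunctional enzyme, had 110.2 on the high-fat diet and 179.2 on chow, 1.63-fold lower. Of the ketone body genes 2 of 5 were measured. Oxct1, which activates acetoacetate for use as fuel, was 1.45-fold higher, at 1836.4 on the high-fat diet and 1262.7 on chow, in 4 probe sets of 1 direction. Acat1 differed by 0.12 in its brightest probe set and by -0.11 and -0.03 in its others.

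Genes of mitochondrial content served as a comparison, and 4 of 12 were higher, beside 46.8% of all measured genes and 55.9% of the bright ones. Their median was -0.06. Their differences ran from -0.27 for Uqcrc2, a core subunit of respiratory complex III, to 0.21 for Vdac1, the outer-membrane channel, and none was at least 25% higher or 20% lower. Tfam, the mitochondrial DNA transcription factor, differed by -0.19. Under the 4 other scalings the medians of this list were between -0.15 and -0.03, and those of the members between 0.14 and 0.28.

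Of 11 regulators of the pathway 7 were lower, beside 52.9% of all measured genes, and 4 higher, beside 46.8%. With reference gene centring 2 were higher, beside 36.8% of all genes. The list had a median of -0.27. Ppargc1b, a coactivator of mitochondrial genes, had 112.7 on the high-fat diet and 225 on chow, 2.00-fold lower in its only probe set, which before rounding is just short of 2-fold. Prkaa1 and Prkaa2, the catalytic subunits of AMP-activated kinase, were 1.77-fold and 1.48-fold lower, with the other measured probe set of Prkaa2 at -0.06. Both were weak. Prkaa1 had 31.8 on the high-fat diet, near the floor, and 56.2 on chow in its only probe set. Prkaa2 had 59.1 on the high-fat diet and 87.5 on chow. The probe error of genes with a mean intensity under 100 was a pooled SD of 0.37. The PPAR receptors, whose ligands include fatty acids, were lower in these probe sets, Ppara by 0.27, Ppard by 0.26 and Pparg by 0.49 on the log2 scale. The other probe set of Ppard gave no difference of the same direction above the floor on both arrays. Rxra, the partner of the PPAR receptors, had 440.2 on the high-fat diet and 360.5 on chow, a difference of 0.29 and the highest of the list. The 3 probe sets of Rxra did not all lie above the floor on both arrays with 1 direction. Lpin1, a coregulator of Ppara, differed by 0.14. Ppara was weak, at 46.8 on the high-fat diet and 56.6 on chow, and its probe sets did not share a direction. Ppargc1a had 54.3 on the high-fat diet and 52.6 on chow, a difference of 0.05 that turned to -0.03 with reference gene centring.

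Known PPAR targets outside the members were higher in 7 of 10 measured cases of 13 listed, beside 46.8% of all measured genes. Their median was 0.72. All 7 reached 1.5-fold, beside 5.82% of all measured genes, and 4 of them reached 2-fold, beside 1.17%. Pdk4, a kinase that shuts pyruvate out of the mitochondrion, had 287 on the high-fat diet and 95.5 on chow, 3.01-fold higher. Ucp3, a mitochondrial uncoupling protein homologue, had 208.6 on the high-fat diet and 80.7 on chow, 2.58-fold higher, and 0.97 log2 units higher in its other probe set. Angptl4, a secreted inhibitor of lipoprotein lipase, had 2467.9 on the high-fat diet and 1046.3 on chow, 2.36-fold higher. Its other probe set gave no difference of the same direction above the floor on both arrays. The 3 that were lower were above the floor only on chow, Cyp4a14 at least 1.52-fold lower, Fabp1 at least 1.46-fold and Acot1 at least 1.10-fold, and 1 of the 7 higher, Fgf21, passed it on the high-fat diet alone. The list was assembled with earlier results of these data known, so its counts were no test of PPAR activity.

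**Figure D4:**
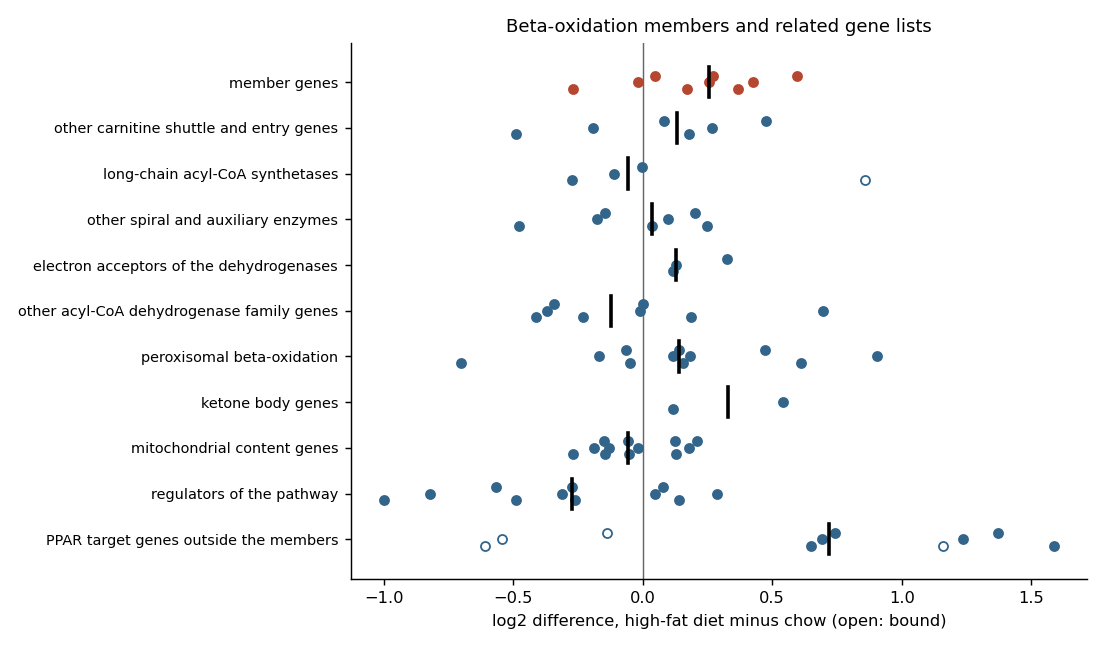
Difference in log2 intensity, high-fat diet minus chow, of the measured genes of each list (points; open where the value is a bound), with the median of the list as a black bar. The member genes (red) have a median of 0.26, mitochondrial content genes -0.06, regulators -0.27 and PPAR targets outside the members 0.72. All lists were chosen with earlier results of these data known. The median of 0.04 of the other spiral enzymes turns negative in 3 of the 4 other scalings, and Hadha and Acads change side in 1 each.

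Markers of the tissue and of other cells were read on the same arrays, as intensities summed over a single probe set per listed gene. This was the brightest measured one, or the one highest on chow for a gene below the floor on both arrays. The tissue label was matched by strong mature adipocyte markers, 8 of 10 with a probe set of their own and all measured, summing to 55030 on the high-fat diet and 51498.7 on chow. As reported 7 of 8 were higher, beside 46.8% of all measured genes and 55.9% of the bright ones. Lep led at 0.63, then Cidec at 0.27, and Retn was lower at -0.07. The count was 3 of 8 under quantile normalization and lowess centring, and 4 of 8 with reference gene centring. Their median difference of 0.08 turned to -0.01 under quantile normalization and -0.04 under lowess centring. Brown and beige markers summed to 471.8 on the high-fat diet and 419.5 on chow. Of the 8 measured 3 were higher, beside 46.8% of all measured genes, and 5 lower. Cox8b had 188.1 on the high-fat diet and 104.3 on chow, 1.80-fold higher. Elovl3 had 54.1 on the high-fat diet and 29.6, near the floor, on chow, 1.83-fold higher. Dio2 was 1.42-fold lower, and the defining gene Ucp1 was below the floor at 4.5 on the high-fat diet and 4.2 on chow. Of 13 skeletal muscle markers 8 were below the floor on both arrays, and the list summed to 1082 on the high-fat diet and 1352.7 on chow. Liver markers, from an organ rich in beta-oxidation enzymes, were lower in 6 of 8 measured cases, beside 52.9% of all measured genes. They summed to 328.2 on the high-fat diet and 802.4 on chow. Mesothelial markers were lower in 5 of 7, beside the same 52.9%, and summed to 1035.8 on the high-fat diet and 1463.6 on chow. Macrophage markers summed to 6957.6 on the high-fat diet and 6975.8 on chow. Of the 9 macrophage markers 4 were higher, beside 46.8% of all measured genes, and 5 lower. The higher count was 2 to 6 under the other scalings. Among the lower were Cd14 by 0.64, Cd163 by 0.54 and Mrc1 by 0.44 on the log2 scale. The higher were Cd68 by 0.22, Lyz2, the largest part of the sum, by 0.16, and Adgre1 and Csf1r by 0.07 each. Of the other lists, progenitor and fibroblast markers were higher in 5 of 6, beside 46.8% of all measured genes, with a median of 0.28. They summed to 10046.9 on the high-fat diet and 7867.2 on chow. Col1a1 was higher by 0.74 and Dpt by 0.62 on the log2 scale, while Pdgfra, the only one lower, differed by -0.66. The count was 4 of 6 under quantile normalization and reference gene centring. Endothelial markers were higher in 5 of 6, red blood cell markers in 2 of 4 and epididymis markers in 1 of 3 measured cases. In that order they summed to 1751.3, 272.8 and 152.7 on the high-fat diet and 1657.9, 245.4 and 143.4 on chow. With reference gene centring the endothelial count was 2 of 6 and the red blood cell count 0 of 4, beside 36.8% of all genes. No marker list had a member at 0 in that setting. The part of these shifts in the differences of the members was not tested.

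**Figure D5:**
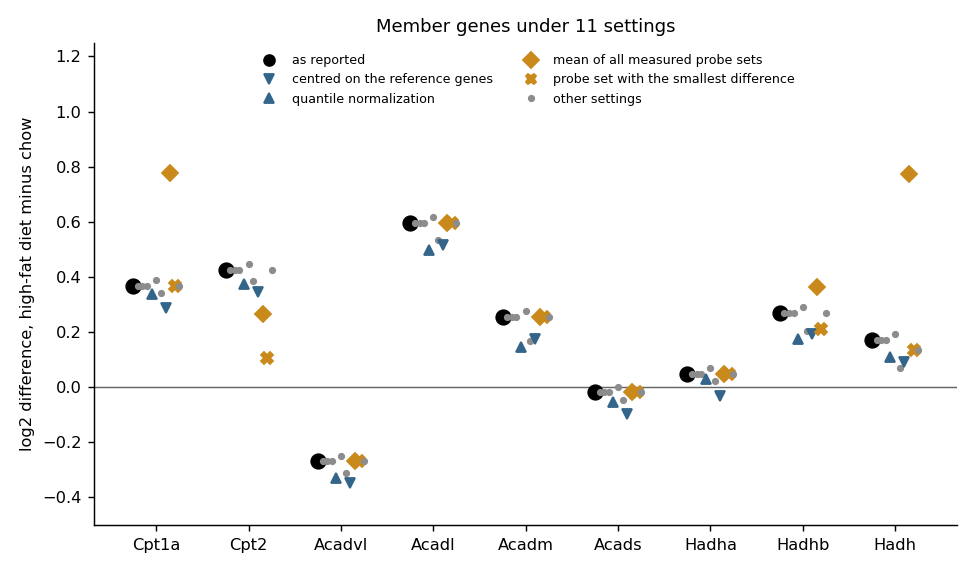
Log2 difference, high-fat diet minus chow, of each member gene under 11 settings of floor, scale and probe set choice (black circles as reported, blue triangles for 2 other scalings, gold marks for 2 other probe set choices, grey dots for the rest). Acadl lies between 0.50 and 0.62 and Acadvl between -0.35 and -0.25, each with 1 measured probe set that the floor and probe set choices cannot move, whereas Hadha and Acads cross 0 in 1 setting each, and Cpt1a, Cpt2 and Hadh move with the choice of probe set.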

How the data were processed

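Biotin-labelled cRNA of 1 sample per diet was hybridised to Affymetrix mouse arrays, per the labels' protocols. The deposited table gives 1 linear intensity per probe set and array; how the authors summarised and scaled it is not given in the sources used here. Intensities were used as deposited. Genes were named from the 2016 platform annotation where a probe set had 1 symbol (34945 of 45037; 932 had several and 9160 none). Of these, 34741 matched the RefSeq table by gene ID.

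Values under an array's 40th percentile were raised to it before log2. The brightest measured probe set stood for a gene. Where only 1 array reached the floor, the difference is a bound. Genes were counted at 1.25-fold, 1.5-fold and 2-fold. Neither diet has a replicate, so no p-value is given, and the number of arrays limits the precision. All members were named with every probe set. Of the other pathway lists, the 3 most different genes were named, and every gene of the carnitine, spiral and electron acceptor lists. Marker lists are given by sums and counts, and the markers named beside them were picked after their values were seen. Other genes were named for their role after their values were seen. The members and lists were chosen with earlier results of these data known. Python 3.11.15, pandas 2.3.3 and statsmodels 0.14.6 (lowess) were used. Counting at 2-fold was tested on simulated data, and counting at 1.25-fold or 1.5-fold was not.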

Additional observations from a re-analysis of the deposited data

How the results depend on the processing

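The count of higher member genes was 6 to 8 of 9 and their median 0.14 to 0.28 over 10 alternatives of floor, filter, scale and probe set choice, beside 7 and 0.26 as reported. With each of 15 probe sets as a unit, an alternative chosen after seeing the data, the count was 13 and the median 0.26. Acads turned to 0.0023 with centring on all probe sets and Hadha to -0.0313 with centring on the reference genes. The mean over probe sets moved Cpt1a to 0.78 and Hadh to 0.77, and the probe set of smallest difference moved Cpt2 to 0.11. No paired analysis was possible because each diet has 1 array. The brightest probe set of each member lay 17.9 to 151 times above the floor, whereas weak probe sets of Cpt1a, Cpt2 and Hadhb lay within 4 times of it.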
